A study of Homo sapiens with 24 samples.

Results

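Glypicans and syndecans are the families of cell-surface proteoglycans that carry heparan sulfate, and all 10 human genes that encode them (GPC1 to GPC6 and SDC1 to SDC4) were followed here out of 26475 genes in the expression tables. The genes were taken by name as 2 complete families, and the set was chosen by the RNA levels of GPC4, which had one of the largest differences in response between 2 cell lines. The responses of GPC4 and of the other members in that contrast are therefore given as a description, without a test. RNA was sequenced from 786-M1A and OS-LM1 cells, metastatic derivatives of the clear cell renal cell carcinoma (ccRCC) lines 786-O and OS-RC2 that also carry a luciferase transgene. Each line was represented by 4 libraries with the construct shPAX8-1, 4 with shPAX8-2 and 4 with sgNTC18, which gave 6 groups and 24 libraries. The shPAX8 constructs are short hairpin RNAs against PAX8, a transcription factor of the renal lineage. sgNTC18 is a non-targeting guide RNA for CRISPR and not an RNAi control, so the effects of PAX8 depletion and of the type of construct cannot be told apart in comparisons with sgNTC18. All cells were grown in culture in RPMI with serum, each line is a single derivative, and nothing in the labels says whether replicates were separate cultures, so p-values measure only the spread between these libraries. The paper lists doxycycline-inducible plasmids for shRNA expression, but its RNA-seq methods name no doxycycline treatment. Whether sgNTC18 cells received the inducer too is not stated there. How long the constructs had been expressed is not given in the sources used here.

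Heparan sulfate proteoglycans hold growth factors, morphogens and matrix proteins at the cell surface through their long sulfated sugar chains. Glypicans are tethered to the outer membrane leaflet by a glycosylphosphatidylinositol (GPI) anchor, lack a cytoplasmic domain and modulate FGF, Wnt, Hedgehog and BMP signalling. Syndecans span the membrane, and their short cytoplasmic tails bind scaffold proteins and link the matrix to the cytoskeleton. SDC1 is the main syndecan of epithelial cells, SDC2 is typical of mesenchymal cells, SDC3 of neural tissue, and SDC4 is widely expressed and found in focal adhesions.

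The hairpin guides are shown because they define the depleted groups. The guide strands given by the study have 22 bases, and capitals mark bases 2 to 8, the seed, counted from the 5′ end.
shPAX8-1: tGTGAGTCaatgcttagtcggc
shPAX8-2: tAGAGTTGtgttaataatggag
Both matched the plus strand of hg38 in full, and PAX8 is transcribed from the minus strand, so they are complementary to its mRNA. The shPAX8-1 site lies at chr2:113241690-113241711, in a coding exon that is untranslated in 1 annotated transcript. The shPAX8-2 site lies at chr2:113218122-113218143, in a UTR exon shared by 7 annotated transcripts. The seeds of the guides differ from each other.

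PAX8 itself was measured first as a check of the labels. In 786-M1A cells PAX8 stood at 292, 393, 360 and 319 CPM (counts scaled by library size after TMM normalization) in the sgNTC18 libraries. It was at 22.9, 21.9, 15.2 and 14.8 CPM with shPAX8-1 and at 41.4, 45.5, 42.6 and 40.0 CPM with shPAX8-2. Every depleted library was below every sgNTC18 library, and the log2 fold changes were −4.18 (SE 0.16, adjusted p = 1.1e-17) and −3.01 (SE 0.15, adjusted p = 5.06e-15) by edgeR's quasi-likelihood test. In OS-LM1 cells PAX8 was at 262, 279, 245 and 254 CPM with sgNTC18, at 85.6, 78.4, 59.8 and 89.2 CPM with shPAX8-1 and at 76.2, 63.8, 97.0 and 79.9 CPM with shPAX8-2. The groups again did not overlap, and the log2 fold changes were −1.73 (SE 0.14) and −1.71 (SE 0.14), so the loss of PAX8 mRNA was smaller than in 786-M1A cells. PAX8-AS1, an lncRNA with an exon opposite one of PAX8, had a median of 118 counts and was lower too (log2 fold changes of −2.26 and −1.37 in 786-M1A and −1.42 and −1.71 in OS-LM1 cells), and where counting ignored strand the reads of the pair cannot be told apart. Total counts ranged from 11634419 to 52059375 per library. Of 8 renal and ccRCC markers, 7 to 8 were above 1 CPM in each group, whereas haematopoietic, endothelial and erythroid markers summed to at most 6.72, 0.923 and 0.114 CPM in any library. The sgNTC18 libraries carried the line they were labelled with, as 60 of 69 genes that marked depleted OS-LM1 cells exceeded 1 CPM in OS-LM1 sgNTC18 libraries and 0 in 786-M1A sgNTC18 libraries. Among the 786-M1A shPAX8-1 libraries, 1 and 2 stood apart from 3 and 4, with a chi-square per gene of 44.9 to 77.7 across these pairs and of 14.1 and 3.72 within them. Members' calls that changed without either pair are given beside the member.

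Of the 10 members, 8 passed the filter on low counts, among 15665 genes tested, and GPC3 and GPC5 did not. GPC2 passed through its counts in 786-M1A cells alone. GPC6 rose and SDC1 fell with both constructs in both lines. SDC2 rose in 786-M1A and fell in OS-LM1 cells, SDC4 fell with shPAX8-1 alone in 786-M1A cells and rose in OS-LM1 cells with both constructs, and GPC1 and SDC3 did not pass the test in any depletion, although both did under other settings. GPC4, which was not tested, was higher in all depleted 786-M1A libraries and lower in all depleted OS-LM1 libraries than in sgNTC18. Depletion moved most of the transcriptome, and the members' counts must be read against that. In 786-M1A cells 4 of 7 members tested passed an adjusted p of 0.05 with shPAX8-1, where 69.5% of all genes did (34.9% higher and 34.6% lower), and 3 of 7 with shPAX8-2, where 62.4% did (30.8% higher and 31.5% lower). In OS-LM1 cells 4 of 7 passed with shPAX8-1, where 67% of all genes did (34% higher and 32.9% lower), and 4 of 7 with shPAX8-2, where 63.5% did (31.4% higher and 32.1% lower). In each comparison 2 of these members rose, and 2 fell, or 1 for 786-M1A with shPAX8-2. With GPC2 among the 7, the share of members that passed was no higher than the share of all genes in this fit. In OS-LM1 cells a change of GPC2 was not detectable at its counts, which lowers the members' share there. Nothing is therefore concluded from the OS-LM1 shares. With each library's trend on transcript GC content removed, 7 of 7 members passed with shPAX8-1 and 5 of 7 with shPAX8-2 in 786-M1A cells. Of all 15665 genes 11269 and 10702 then passed. In OS-LM1 cells GPC1 and SDC3 passed in addition with shPAX8-1, and SDC3 with shPAX8-2, against 10849 and 10384 of all genes. More members thus passed in both lines than without this step. The constructs in a line share their sgNTC18 libraries, so their values are given side by side.

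**Figure D1:**
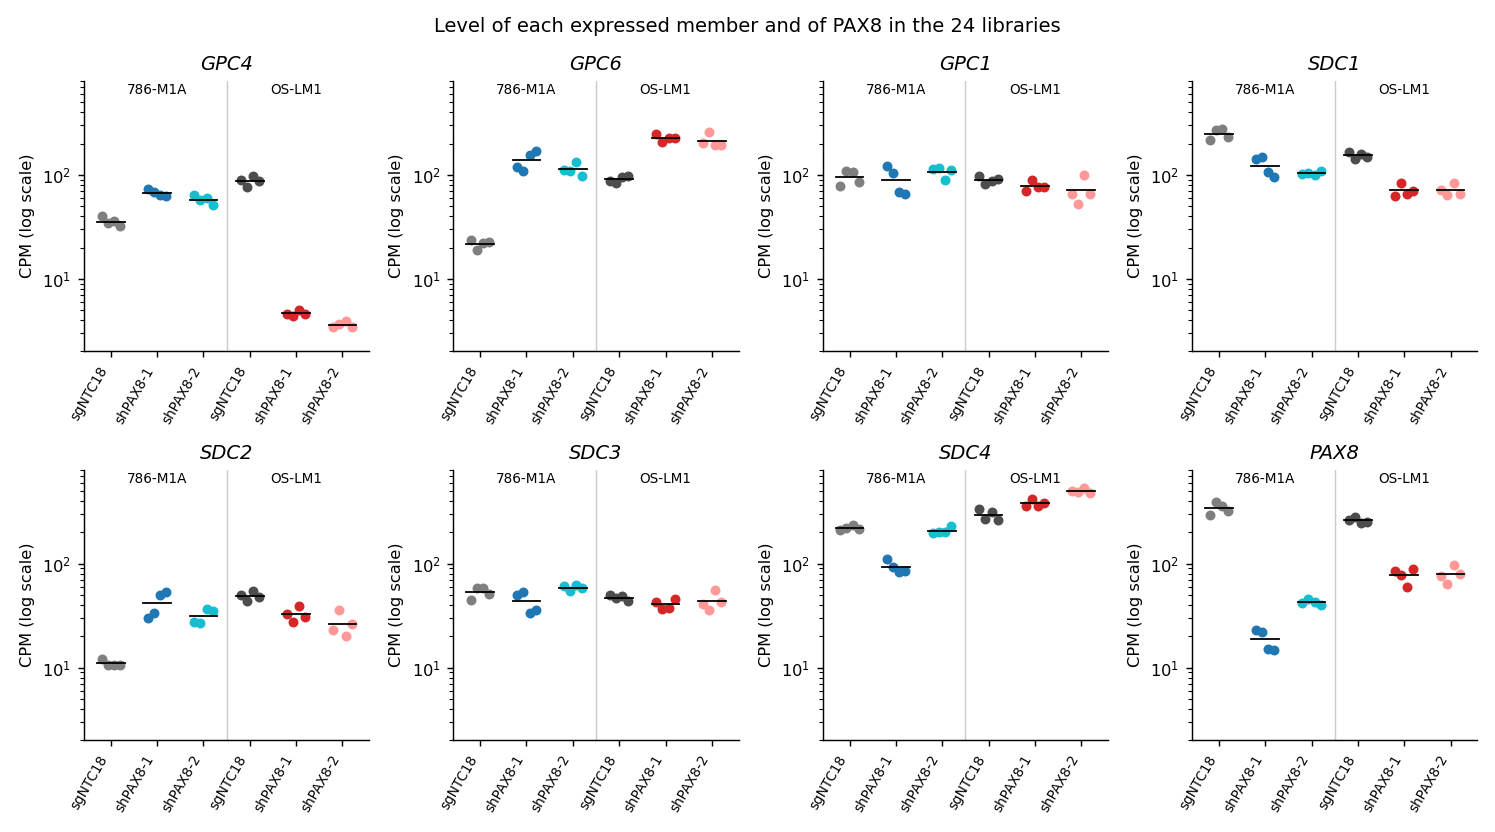
CPM on a log axis for GPC1, GPC4, GPC6, SDC1 to SDC4 and PAX8, with a point for each of the 4 libraries and a bar at the mean of each of the 6 groups. GPC2 is not shown. GPC4 is near 4 CPM in all 8 depleted OS-LM1 libraries and above 30 CPM in every other library.

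GPC4 (chrX:133300103-133415489, minus strand, GRCh38) encodes a glypican expressed in the developing kidney and brain. In 786-M1A cells it was at 40.0, 34.1, 35.6 and 32.1 CPM with sgNTC18, at 73.5, 68.7, 64.0 and 62.4 CPM with shPAX8-1 and at 64.1, 56.8, 59.8 and 51.0 CPM with shPAX8-2. Every depleted library was above every control, and the groups of both constructs overlapped each other. In OS-LM1 cells GPC4 was at 89.5, 77.3, 98.2 and 87.1 CPM with sgNTC18. It was at 4.62, 4.39, 4.98 and 4.59 CPM with shPAX8-1 and at 3.43, 3.70, 3.92 and 3.43 CPM with shPAX8-2. The 8 depleted libraries lay far below the 4 controls, and below every 786-M1A library. The fitted log2 differences from sgNTC18 were 0.92 (SE 0.10) and 0.71 (SE 0.10) in 786-M1A cells, or 1.89- and 1.63-fold higher, and the first was 1.04 without libraries 3 and 4 of shPAX8-1. They were −4.24 (SE 0.11) and −4.59 (SE 0.12) in OS-LM1 cells, or 18.9- and 24.1-fold lower. The difference between the lines in the mean response of both constructs was −5.23 (SE 0.13), which ranked 191st by size among 15665 genes. In the order of group means the depleted OS-LM1 groups (3.62 and 4.64 CPM) were lowest, 786-M1A sgNTC18 (35.4 CPM) followed, and OS-LM1 sgNTC18 (88.0 CPM) was highest. The only neighbours in that order whose libraries overlapped were 786-M1A with shPAX8-2 (57.9 CPM) and with shPAX8-1 (67.1 CPM).

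GPC4 lies 120.3 kb from GPC3 on the X chromosome, and the pair belongs to one of the tandem arrangements of glypican genes. Among the 3 nearest protein-coding genes on each side, TFDP3, USP26 and HS6ST2 on one and GPC3, CCDC160 and PHF6 on the other, PHF6 alone was expressed, and the others were at most at 0.283 CPM in any library. PHF6, a chromatin protein 957.8 kb from GPC4, had mean levels of 23.6, 32.3 and 24.7 CPM with sgNTC18, shPAX8-1 and shPAX8-2 in 786-M1A cells, and of 41.5, 24.6 and 21.6 CPM in OS-LM1 cells. GPC3, an oncofetal antigen of liver cancer, had at most 3 counts in any library and was above 0 in 3 libraries, all sgNTC18. No change can be read from so few counts, as median depth was also higher with sgNTC18 than with either shPAX8 construct in each line.

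GPC6 (chr13:93216529-94408020, plus strand), a glypican required for skeletal growth, rose in both lines. With sgNTC18 it was at 23.7, 18.8, 22.0 and 22.8 CPM in 786-M1A cells, against 118, 108, 157 and 168 CPM with shPAX8-1 and 112, 109, 132 and 98.2 CPM with shPAX8-2. No depleted library overlapped the controls, and the log2 fold changes were 2.66 (SE 0.14, adjusted p = 3.37e-15) and 2.37 (SE 0.13, adjusted p = 6.02e-14), or 6.30- and 5.17-fold. OS-LM1 controls started higher, at 87.3, 83.4, 96.4 and 98.5 CPM. They compared with 249, 208, 228 and 224 CPM with shPAX8-1 and with 203, 258, 194 and 193 CPM with shPAX8-2. The groups were again separate, and the log2 fold changes of 1.31 (SE 0.13, adjusted p = 1.12e-09) and 1.21 (SE 0.13, adjusted p = 5.72e-09) corresponded to 2.48- and 2.32-fold. The mean of 786-M1A sgNTC18 (21.8 CPM) was thus the lowest of the 6 groups. OS-LM1 sgNTC18 (91.4 CPM) overlapped 786-M1A with shPAX8-2 (113 CPM), and both depleted OS-LM1 groups were above all others. All 786-M1A libraries with shPAX8-1 (mean 138 CPM) were above every OS-LM1 control. An lncRNA is annotated on the opposite strand of a GPC6 exon, and the expression tables hold no row for it.

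GPC1 (chr2:240435663-240468076, plus strand), the most widely expressed glypican and a co-receptor for FGF2, did not pass the test in any depletion. Its libraries ranged from 65.6 to 123 CPM in 786-M1A and from 52.2 to 100 CPM in OS-LM1 cells, and every group overlapped its neighbours in the order of means. The log2 fold changes were −0.07 (95% interval −0.435 to 0.295) and 0.19 (−0.179 to 0.551) in 786-M1A cells. They were −0.20 (−0.56 to 0.169) and −0.32 (−0.689 to 0.0401) in OS-LM1 cells. The 786-M1A libraries with shPAX8-1 were spread most, with 123 and 104 CPM in libraries 1 and 2 and 68.0 and 65.6 CPM in libraries 3 and 4. Without libraries 1 and 2 the log2 fold change of GPC1 was −0.484 (adjusted p = 0.0168), and without 3 and 4 it was 0.297 (adjusted p = 0.136), so 2 libraries decide its direction. Without OS-LM1 shPAX8-2 replicate 3, the log2 fold change of that group was −0.545 (adjusted p = 0.00723). That group also passed at −0.336 when either pair of 786-M1A shPAX8-1 libraries was left out (adjusted p = 0.0362 and 0.0394), and at −0.321 in a fit to the 12 OS-LM1 libraries alone (adjusted p = 0.0488). GPC1 transcripts are rich in G and C (66.7%), and the fold changes of all genes correlated with transcript GC content in these comparisons, with Spearman's rho of −0.333 and −0.0772 in 786-M1A and −0.32 and −0.278 in OS-LM1 cells. With each library's trend on GC content removed, GPC1 was higher with shPAX8-1 in 786-M1A cells by 0.911 on the log2 scale (adjusted p = 9.87e-13) and in OS-LM1 cells by 0.448 (adjusted p = 1.65e-06). With shPAX8-2 it was higher by 0.586 in 786-M1A cells (adjusted p = 1.53e-08), and in OS-LM1 cells it was at 0.133 (adjusted p = 0.097), so its calls and its direction depend on that choice.

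GPC2, known from the developing nervous system, was close to the limit of detection. Its rounded counts in 786-M1A cells were 4, 12, 11 and 11 with sgNTC18, 20, 21, 8 and 3 with shPAX8-1 and 11, 11, 10 and 10 with shPAX8-2. In OS-LM1 cells they were 1, 5, 2 and 0, then 1, 0, 0 and 0, then 0, 0, 2 and 3. GPC2 was at most 1.05 CPM in any 786-M1A library and at most 0.146 CPM in any OS-LM1 library. It did not pass the test in 786-M1A cells, with a log2 fold change of 0.74 (95% interval −0.332 to 1.81) for shPAX8-1. That value was 1.35 and passed without libraries 3 and 4 (adjusted p = 0.0389), was −0.324 without 1 and 2, and was 1.45 and passed with the GC trend removed (adjusted p = 0.00877). A change in OS-LM1 cells was not detectable at this depth. GPC5 (chr13:91398621-92867237), which lies 349.3 kb from GPC6 in the other tandem pair, had at most 4 counts and 0.121 CPM in any library. The rise of GPC6 was thus seen beside a neighbouring glypican gene that stayed near 0 in all 6 groups.

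**Figure D2:**
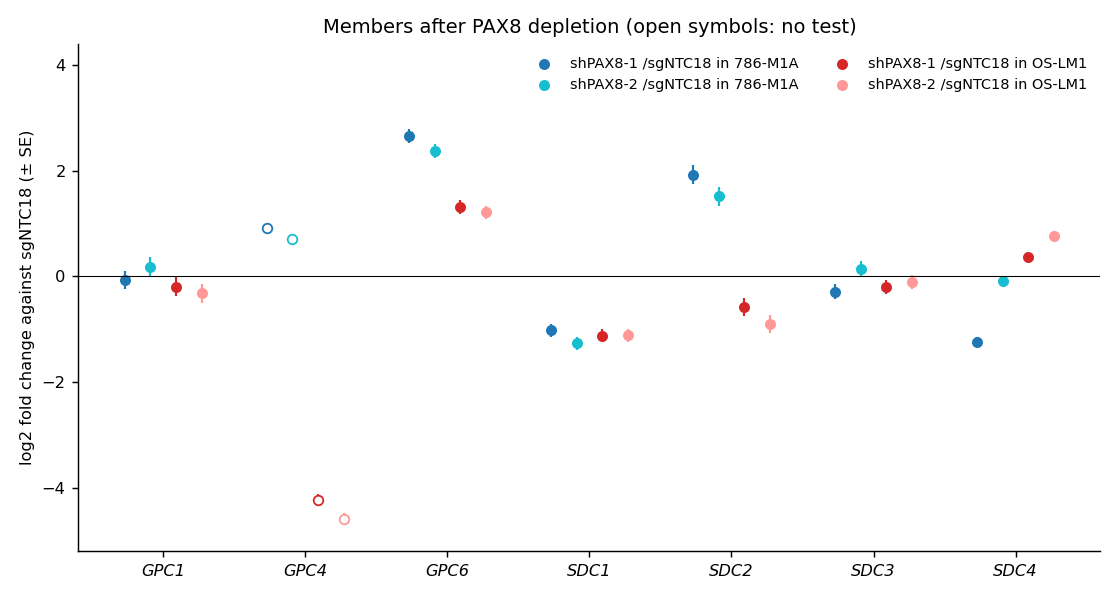
Log2 fold change against sgNTC18 for GPC1, GPC4, GPC6 and SDC1 to SDC4, by line and construct. Bars show the standard error, and open symbols mark values without a test. GPC6 lies above 0 and SDC1 below 0 in all 4 comparisons, whereas GPC4 and SDC2 lie on opposite sides of 0 in the 2 lines.

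SDC1 (chr2:20200797-20225475, minus strand), the syndecan of epithelia and plasma cells, also known as CD138, fell in both lines. It was at 216, 272, 275 and 233 CPM with sgNTC18 in 786-M1A cells, at 142, 147, 107 and 95.9 CPM with shPAX8-1 and at 102, 105, 98.9 and 109 CPM with shPAX8-2. All depleted libraries were below the controls, with log2 fold changes of −1.02 (SE 0.12, adjusted p = 4.27e-08) and −1.27 (SE 0.12, adjusted p = 1.77e-09). In OS-LM1 cells SDC1 was at 166, 143, 158 and 150 CPM with sgNTC18, at 62.9, 84.3, 65.7 and 70.3 CPM with shPAX8-1 and at 71.0, 64.4, 83.2 and 65.2 CPM with shPAX8-2. These groups did not overlap either, and the log2 fold changes were −1.12 (SE 0.12, adjusted p = 1.12e-08) and −1.12 (SE 0.12, adjusted p = 1.51e-08). SDC1 was therefore 2.03- to 2.41-fold lower in all 4 comparisons, although PAX8 fell 18.2- and 8.04-fold in 786-M1A cells and 3.32- and 3.27-fold in OS-LM1 cells. SDC1 transcripts have a GC content of 60.1%, and with the GC trend removed its log2 fold changes were −0.298 and −1.02 in 786-M1A and −0.576 and −0.699 in OS-LM1 cells, all still past the threshold. The part of GC content in the fall was not tested further.

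SDC4 (chr20:45325288-45348424, minus strand), a syndecan of focal adhesions that binds protein kinase C alpha, changed in opposite directions in the lines with shPAX8-1. With sgNTC18 it was at 211, 221, 234 and 215 CPM in 786-M1A cells, against 110, 93.6, 83.1 and 85.6 CPM with shPAX8-1 and 197, 201, 203 and 228 CPM with shPAX8-2. The shPAX8-1 libraries were all below the others, whereas those of shPAX8-2 overlapped the controls. The log2 fold changes were −1.24 (SE 0.10, adjusted p = 9.16e-12) with shPAX8-1 and −0.09 (95% interval −0.279 to 0.105) with shPAX8-2. OS-LM1 cells held SDC4 at 335, 269, 313 and 265 CPM with sgNTC18, at 362, 417, 356 and 380 CPM with shPAX8-1 and at 498, 490, 536 and 482 CPM with shPAX8-2. Each construct was above the controls without overlap, with log2 fold changes of 0.36 (SE 0.09, adjusted p = 0.00144) and 0.76 (SE 0.09, adjusted p = 8.48e-08). In the order of means all neighbouring groups were separate except 786-M1A with shPAX8-2 (207 CPM) and with sgNTC18 (220 CPM).

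SDC2 (chr8:96493813-96611790), the syndecan of mesenchymal cells, rose in 786-M1A and fell in OS-LM1 cells. In 786-M1A cells it was at 12.1, 10.6, 10.5 and 10.6 CPM with sgNTC18, at 30, 33.6, 50 and 53.1 CPM with shPAX8-1 and at 27.2, 26.7, 36.6 and 35.0 CPM with shPAX8-2. The controls formed a narrow group below all depleted libraries, and the log2 fold changes were 1.93 (SE 0.18, adjusted p = 3.51e-10) and 1.52 (SE 0.18, adjusted p = 4.46e-08). In OS-LM1 cells the controls were at 49.4, 44, 54 and 47.5 CPM, against 32.8, 27.4, 39.0 and 30.8 CPM with shPAX8-1 and 23.1, 35.5, 20.2 and 26.5 CPM with shPAX8-2. Here the depleted libraries lay below the controls, with log2 fold changes of −0.58 (SE 0.17, adjusted p = 0.00354) and −0.89 (SE 0.17, adjusted p = 5.23e-05). The difference between lines was −2.46 (SE 0.21), the largest among the members after GPC4, and ranked 1190th among all genes. The 4 depleted and the OS-LM1 control groups overlapped their neighbours in the order of means (26.3 to 48.7 CPM), and 786-M1A sgNTC18 (10.9 CPM) was apart.

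SDC3 (chr1:30869466-30909735, minus strand), the syndecan of neural tissue, did not pass the test in any depletion. It ranged from 33.8 to 62.2 CPM in 786-M1A and from 36.0 to 55.5 CPM in OS-LM1 libraries, and neighbouring groups overlapped throughout. In 786-M1A cells its log2 fold changes were −0.29 (95% interval −0.578 to −0.00852, adjusted p = 0.0623) and 0.15 (−0.138 to 0.43). In OS-LM1 cells they were −0.21 (−0.49 to 0.0773) and −0.11 (−0.388 to 0.178). With shPAX8-1 in 786-M1A cells SDC3 was at 50.3 and 53.4 CPM in libraries 1 and 2 and at 33.8 and 36.0 CPM in libraries 3 and 4, and without 1 and 2 it passed the test at −0.591 (adjusted p = 0.000535). With the GC trend removed it was instead higher, by 0.359 and 0.373 in 786-M1A and by 0.309 and 0.277 in OS-LM1 cells, so its direction is not settled by these data. The shPAX8-1 fall in 786-M1A cells also passed without sgNTC18 replicate 1 (−0.371), shPAX8-1 replicate 1 (−0.373) or 2 (−0.411), or OS-LM1 shPAX8-2 replicate 3 (−0.295).

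Levels of different genes were compared as TPM, an abundance of transcripts within a library that allows for transcript length. In 786-M1A controls SDC4 (157 TPM) and SDC1 (144 TPM) were the most abundant members, followed by GPC1 (47.5 TPM), SDC3 (19.2 TPM), GPC4 (17.7 TPM), SDC2 (5.84 TPM) and GPC6 (5.69 TPM). In OS-LM1 controls SDC4 (199 TPM) and SDC1 (84.5 TPM) also led, GPC1 (42.4 TPM) and GPC4 (41.5 TPM) followed at like levels, and SDC2 (24.5 TPM), GPC6 (22.4 TPM) and SDC3 (16.0 TPM) were the lowest of these 7. GPC2, GPC3 and GPC5 had mean levels of at most 0.452 TPM in any group. Syndecan mRNA thus exceeded glypican mRNA in both lines. In bulk RNA, less RNA per cell and fewer cells with the RNA cannot be told apart.

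The make-up of the glypicans changed in different ways in the lines. GPC1 made up 66.5% ± 4.8 (SD, n = 4) of summed glypican TPM in 786-M1A controls, and 38.8% ± 8.9 and 47.9% ± 5.0 with shPAX8-1 and shPAX8-2. GPC6 rose from 8.05% ± 1.42 of that sum to 31.6% ± 8.9 and 26.1% ± 3.6, whereas GPC4 stayed at 25.0% ± 3.7, 29.1% ± 0.73 and 25.6% ± 1.8. All 3 expressed glypicans thus contributed after depletion in 786-M1A cells. In OS-LM1 cells GPC4 went from 39.0% ± 1.7 to 2.30% ± 0.13 and 1.96% ± 0.05 of glypican TPM, and GPC6 from 21.1% to 58.7% and 59.7%. GPC1 held 39.8%, 39.0% and 38.3%, and the other glypicans held almost none. As these are shares of the same sum, the share that GPC4 lost had then to be close to that which GPC6 gained. This does not show that GPC6 replaced GPC4. The summed glypican level was 71.3 ± 5.6, 107 ± 11 and 104 ± 6.6 TPM in 786-M1A cells and 106 ± 7.3, 96.6 ± 8.1 and 85.6 ± 8.4 TPM in OS-LM1 cells. The sum was higher in all depleted 786-M1A libraries than in their controls and overlapped the controls with shPAX8-1 in OS-LM1 cells. With shPAX8-2 it lay only just below them there, at most at 94.2 TPM against at least 95.6 TPM, and TPM are not TMM-scaled. TPM are also not corrected for GC content, which was 66.7% for GPC1, 44.8% for GPC4 and 40.8% for GPC6 transcripts. The GPC1 share ranged from 30.6% to 47.5% among the 786-M1A shPAX8-1 libraries, which stood apart in pairs. The part of GC content and of that split in these shares was not tested.

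Among syndecans, SDC4 and SDC1 together held most of the TPM in every group. In 786-M1A cells SDC4 held 48.2%, 37.8% and 60.1% with sgNTC18, shPAX8-1 and shPAX8-2, and SDC1 held 44.1%, 40.3% and 24.4%. SDC2 went from 1.80% to 13.1% and 6.78%. In OS-LM1 cells SDC4 went from 61.3% to 78.7% and 83.5%, while SDC1 went from 26.1% to 11.9% and 9.58% and SDC2 from 7.58% to 5.09% and 3.29%. SDC4 thus took a larger share of the syndecans with both constructs in OS-LM1 cells, and with shPAX8-2 alone in 786-M1A cells. Summed syndecan TPM was 326 ± 18, 162 ± 21 and 226 ± 10 in 786-M1A cells and 324 ± 29, 330 ± 46 and 396 ± 31 in OS-LM1 cells. The controls of both lines had similar sums, and the depleted 786-M1A libraries were all below their controls. GC content was 60.1% for SDC1, 48.8% for SDC4 and 41.5% for SDC2 transcripts, and its part in these shares was not tested.

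**Figure D3:**
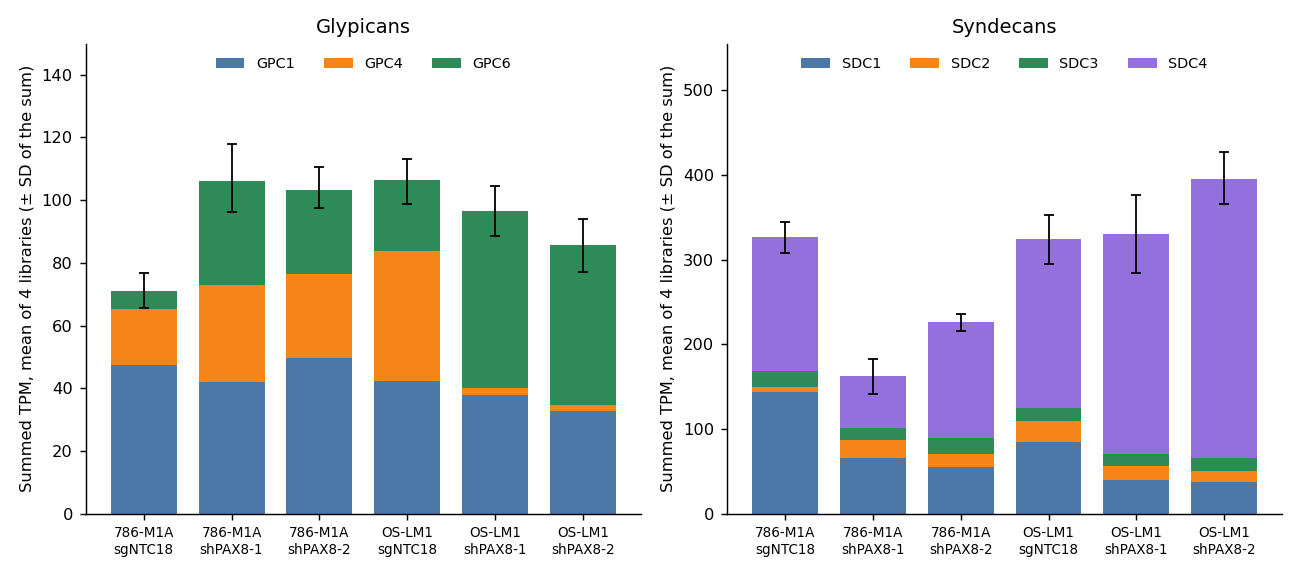
Mean TPM of GPC1, GPC4, GPC6 and SDC1 to SDC4 stacked by family in the 6 groups, on axes that start at 0. TPM are not corrected for GC content. The GPC4 segment nearly disappears in depleted OS-LM1 cells while the GPC6 segment grows, and SDC4 makes up most of the syndecan bar there.

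The constructs were compared with each other within a line, which uses no sgNTC18 library. In 786-M1A cells 3 of 8 members passed, where 48.1% of all genes did (24.9% higher and 23.2% lower with shPAX8-1), and in OS-LM1 cells 2 of 8 passed, where 23.1% did (11.4% higher and 11.7% lower). In both lines SDC4 was lower under shPAX8-1 than under shPAX8-2, by a log2 difference of −1.15 (SE 0.10, adjusted p = 6.19e-10) in 786-M1A and −0.41 (SE 0.09, adjusted p = 0.00205) in OS-LM1 cells. This contrast differed between the lines by 0.75 (SE 0.13, adjusted p = 0.000163), and SDC4 was the only 1 of 8 members for which it did, where 27.2% of all genes passed (12.7% higher and 14.5% lower in OS-LM1). Under other settings more members passed here. They were GPC1 (0.833), GPC6 (−0.411) and SDC3 (0.668) without libraries 1 and 2 of 786-M1A shPAX8-1, SDC1 (−0.487) without 3 and 4, SDC1 (−0.595) with the GC trend removed and GPC1 (0.604) without OS-LM1 shPAX8-2 replicate 3. PAX8 was also lower with shPAX8-1 in 786-M1A cells (−1.18, adjusted p = 6.26e-07) and was not distinguishable between constructs in OS-LM1 cells (−0.02, 95% interval −0.307 to 0.265). GPC4 was higher with shPAX8-1 by 0.35 (SE 0.12, adjusted p = 0.0293) in OS-LM1 cells, a call that ended with the GC trend removed (adjusted p = 0.0704), without the filter on low counts (adjusted p = 0.0576) and without shPAX8-1 replicate 1, 3 or 4 or shPAX8-2 replicate 1 or 4 (0.317 to 0.361, adjusted p from 0.0516 to 0.0852). In 786-M1A cells the GPC4 difference was 0.21 (SE 0.10, adjusted p = 0.0672), and it passed without shPAX8-2 replicate 1 (0.265, adjusted p = 0.0414). Between the lines this difference of constructs varied by 0.14 (95% interval −0.169 to 0.449, adjusted p = 0.524), so their small gap was not shown to differ.

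For SDC3 in 786-M1A cells the shPAX8-1 level was below that of shPAX8-2 (−0.44, adjusted p = 0.0114), and for SDC2 it was above it (0.41, adjusted p = 0.0493). The SDC2 call ended under most alternatives, with an estimate of 0.031 without libraries 3 and 4, and the SDC3 call ended without those libraries together (−0.176), without library 3 (−0.336) or 4 (−0.358) alone, and with the GC trend removed (−0.0137). Other members passed here with 1 library left out, namely GPC6 without shPAX8-2 replicate 3 (0.359) or shPAX8-1 replicate 1 (0.352) or 2 (0.387), SDC1 without shPAX8-1 replicate 4 (0.349) and GPC1 without shPAX8-1 replicate 1 (−0.441). Without libraries 1 and 2 of shPAX8-1, GPC1 (−0.701, adjusted p = 0.00145) and GPC6 (0.512, adjusted p = 0.000768) passed, and SDC1 was at −0.0455. Without 3 and 4, SDC1 passed at 0.486 (adjusted p = 0.0035) and GPC1 was at 0.0801. With the GC trend removed, SDC1 (0.717) and GPC1 (0.325) passed in 786-M1A cells and GPC1 (0.314) in OS-LM1 cells. In OS-LM1 cells SDC2 passed without shPAX8-2 replicate 2 (0.486, adjusted p = 0.0389). Fold changes between the constructs had a Spearman's rho with GC content over all genes of −0.528 in 786-M1A and −0.188 in OS-LM1 cells. The part of GC content and of the split among the shPAX8-1 libraries in these differences was not tested further.

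**Figure D4:**
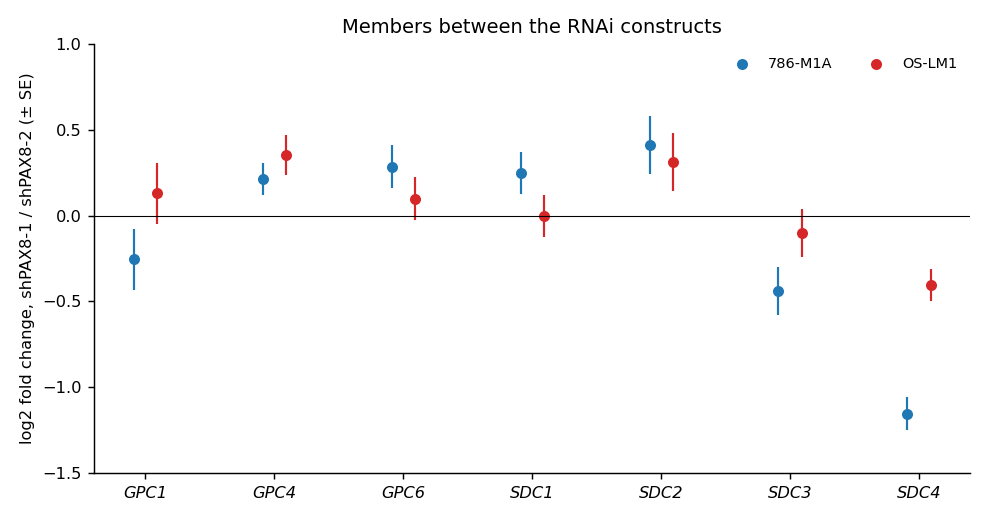
Log2 difference of shPAX8-1 from shPAX8-2 for GPC1, GPC4, GPC6 and SDC1 to SDC4 in each line, with bars for the standard error. SDC4 lies below 0 in both lines and further below in 786-M1A cells.

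The lines were also compared with each other under the same construct. GPC2, which passed the filter through 786-M1A cells alone, is left out of these counts. With sgNTC18, 4 of the other 6 members tested differed, where 63% of all genes did (32% higher and 31% lower in OS-LM1). GPC6 (log2 difference 2.06, SE 0.13, adjusted p = 2.64e-13) and SDC2 (2.15, SE 0.18, adjusted p = 4.85e-11) were 4.18- and 4.45-fold higher in OS-LM1 than in 786-M1A controls, and SDC4 was higher by 0.42 (SE 0.09, adjusted p = 0.000288). SDC1 was lower by −0.69 (SE 0.12, adjusted p = 1.99e-05), whereas GPC1 (−0.09) and SDC3 (−0.18) did not pass. With the GC trend removed GPC1 was instead higher by 0.722 (adjusted p = 1.64e-10), and SDC3 was at 0.136. GPC4 was higher in OS-LM1 controls by 1.31 (SE 0.10), untested. With the shPAX8 constructs combined these 6 members differed, where 83.1% of all genes did (41.7% higher and 41.5% lower). SDC4 was then higher in OS-LM1 cells by 1.65 (SE 0.07, adjusted p = 3.92e-18) and GPC6 by 0.82 (SE 0.09, adjusted p = 3.68e-09), and SDC1 was lower by −0.67 (SE 0.09, adjusted p = 8.42e-08). SDC2 was now lower in OS-LM1 cells, by −0.31 (SE 0.12, adjusted p = 0.0218), and GPC4 by −3.92 (SE 0.08), untested. The SDC2 call ended without OS-LM1 shPAX8-2 replicate 3 (−0.248), OS-LM1 shPAX8-1 replicate 2 (−0.266) or 786-M1A shPAX8-1 replicate 4 (−0.235), and without replicates 3 and 4 of the last group it was at −0.136 (adjusted p = 0.247). GPC1 (−0.40) and SDC3 (−0.26) also passed as lower. With the GC trend removed GPC1 was instead higher (0.264, adjusted p = 1.8e-05), and SDC3 did not pass (0.0621, adjusted p = 0.339). The SDC3 call ended without 786-M1A shPAX8-1 replicate 2 (−0.198) or replicates 1 and 2 (−0.114, adjusted p = 0.237), and the GPC1 call without replicates 1 and 2 of that group (−0.201). For GPC4 the line with the higher level was therefore OS-LM1 among controls and 786-M1A among depleted cells. For SDC2 it was OS-LM1 among controls. Among depleted cells the SDC2 groups of the lines overlapped (26.3 and 32.5 CPM in OS-LM1, 31.4 and 41.7 CPM in 786-M1A), and the call depended on single libraries.

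Genes that build, modify and use heparan sulfate were followed in 7 lists of 83 genes, of which 65 were tested. In each of the 4 depletions 49 of the 65 (75.4%) passed, where 69.5%, 62.4%, 67% and 63.5% of all genes did. The share was thus above that of all genes in each comparison. However, the lists were chosen with earlier results of these data known, and whether they differ from other genes was not tested. There were 29 genes up and 20 down for shPAX8-1 and 35 up and 14 down for shPAX8-2 in 786-M1A cells, and 24 up and 25 down and then 28 up and 21 down in OS-LM1 cells. Of all genes 34.9%, 30.8%, 34% and 31.4% rose in these comparisons and 34.6%, 31.5%, 32.9% and 32.1% fell. The counts of each list are to be read against these shares. Chain assembly, the work of the linker glycosyltransferases and of the EXT polymerases, moved both ways. Of 10 genes tested, 4 rose and 4 fell with shPAX8-1 in 786-M1A cells and 3 rose and 5 fell in OS-LM1 cells. EXTL2, which limits chain elongation, rose in 786-M1A (1.25 and 0.80 with the 2 constructs) and OS-LM1 cells (1.76 and 1.24), and B4GALT7, which adds the first galactose of the linker, fell in both (−1.17 and −0.58, then −1.34 and −0.95).

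Among 8 chain-modifying enzymes, 2 rose and 3 fell with shPAX8-1 in either line. Of all genes 34.9% and 34% rose there and 34.6% and 32.9% fell. HS3ST1, the 3-O-sulfotransferase that makes the antithrombin-binding site, fell most. Its mean level went from 2.63 to 0.783 and 0.694 CPM in 786-M1A and from 36.6 to 8.53 and 7.16 CPM in OS-LM1 cells, with log2 fold changes of −1.75 and −1.96 and of −2.10 and −2.35. HS2ST1, a 2-O-sulfotransferase, rose in both (0.97 and 0.60, then 0.55 and 0.40), although with the GC trend removed it passed in OS-LM1 cells with neither construct. HS6ST1 fell in both (−0.77 and −0.44, then −0.98 and −0.44). With the GC trend removed 3 of these calls ended, at 0.0338 and −0.142 (adjusted p = 0.841 and 0.372) in 786-M1A cells and at 0.00607 with shPAX8-2 in OS-LM1 cells (adjusted p = 0.974). Its shPAX8-2 call in 786-M1A cells also ended with DESeq2's size factors (adjusted p = 0.0516) and in a fit to that line alone (adjusted p = 0.0678). Its shPAX8-2 calls ended in either line with single libraries left out, as did that of HS2ST1 in OS-LM1 cells. Of 7 genes of precursor supply, the sulfate carrier SLC26A2 fell in 786-M1A cells (−1.19 and −1.30), and PAPSS1 and PAPSS2, which make the sulfate donor, rose there (0.74 and 0.45, then 0.29 and 0.44). In OS-LM1 cells SLC35B3, which carries that donor into the Golgi, rose (0.86 and 0.57).

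Of 8 genes for remodelling and shedding, 4 rose and 2 fell with shPAX8-1 and 6 rose and 1 fell with shPAX8-2 in 786-M1A cells, and 4 rose and 3 fell and then 6 rose and 2 fell in OS-LM1 cells. MMP14, a membrane protease that cleaves syndecans, went from 293 to 633 and 776 CPM in 786-M1A and from 193 to 292 and 309 CPM in OS-LM1 cells. ADAM17, the sheddase of many surface proteins, rose in both lines (0.34 and 0.77, then 0.64 and 1.06), but its shPAX8-1 call in 786-M1A cells ended with the GC trend removed (−0.113) and without libraries 3 and 4 (0.265, adjusted p = 0.0557). FURIN, the proprotein convertase that processes glypicans, fell in 786-M1A cells (−2.50 and −0.53). Among 10 other proteoglycans with heparan sulfate or related chains, 6 rose and 3 fell with shPAX8-1 in 786-M1A and 3 rose and 5 fell in OS-LM1 cells. The counts of both lists stand beside 30.8% to 34.9% of all genes that rose and 31.5% to 34.6% that fell in the depletion comparisons.

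SRGN, the proteoglycan of secretory granules, was the one list gene named in both lines that moved in opposite directions, as GPC4 and SDC2 did. Its mean level was 0.133 CPM with sgNTC18, 3.85 CPM with shPAX8-1 and 1.55 CPM with shPAX8-2 in 786-M1A cells. OS-LM1 controls held 76.6 CPM, against 0.512 CPM with shPAX8-1 and 0.144 CPM with shPAX8-2, with 1 shPAX8-2 library at 0. SPOCK1, a testican, rose in 786-M1A (0.99 and 0.67) and OS-LM1 cells (1.47 and 0.31). The last call ended without sgNTC18 replicate 1, 2 or 4 or shPAX8-2 replicate 2 or 4, with the GC trend removed (0.158, adjusted p = 0.168) and without the filter on low counts (adjusted p = 0.0565). AGRN, the agrin of basement membranes, fell in 786-M1A cells (−1.53 and −0.70) and COL18A1 fell in OS-LM1 cells (−1.81 and −0.85).

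Of 8 partners of the syndecan tail, 2 rose and 4 fell with each construct in 786-M1A cells and 3 rose and 4 fell with each in OS-LM1 cells. Over all genes 30.8% to 34.9% rose and 31.5% to 34.6% fell in these comparisons. SDCBP, or syntenin, the PDZ protein that binds all syndecan tails, rose from 177 to 682 and 281 CPM in 786-M1A and from 52.8 to 204 and 172 CPM in OS-LM1 cells, and so in both lines regardless of the direction of SDC2 and SDC4. PDCD6IP (ALIX), which acts with syntenin in exosome formation, rose in OS-LM1 cells (0.86 and 0.69). In 786-M1A cells the actin crosslinker ACTN4 (−2.60 and −1.35) and the PDZ protein GIPC1 (−2.0 and −1.52) fell, and in OS-LM1 cells CASK (−0.97 and −0.91) and ARHGDIA (−1.12 and −0.69) did.

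Among ligands that bind heparan sulfate, more genes rose than fell. Of 14 tested, 8 rose and 2 fell with shPAX8-1 and 11 rose and 2 fell with shPAX8-2 in 786-M1A cells, and 8 rose and 2 fell and then 9 rose and 1 fell in OS-LM1 cells. Of all genes 34.9%, 30.8%, 34% and 31.4% rose in these comparisons, and the list was chosen with earlier results of these data known. The median log2 fold change of the list was 0.875, 1.21, 1.2 and 1.1 in these comparisons, against 0.0077, 0.00606, 0.00136 and −0.03 over all genes tested. WNT5A, a ligand of non-canonical Wnt signalling, went from 11.1 to 32.1 and 30.8 CPM in 786-M1A and from 77.4 to 641 and 617 CPM in OS-LM1 cells. BMP2 rose in 786-M1A cells (1.94 and 1.09). MDK, the heparin-binding growth factor midkine, went from 8.83 to 164 and 225 CPM in OS-LM1 cells and was at 3.04, 2.87 and 7.16 CPM in 786-M1A cells.

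The genes whose group means were most like those of GPC4 were found among 12438 genes by the root-mean-square (RMS) difference of centred log2 CPM over the 6 groups. KIRREL3 (RMS 0.517), an adhesion molecule related to nephrin, was nearest. Its mean level was 8.17, 7.48 and 8.23 CPM in 786-M1A cells with sgNTC18, shPAX8-1 and shPAX8-2, and 7.93, 0.323 and 0.251 CPM in OS-LM1 cells. Like GPC4 it was low in depleted OS-LM1 cells alone, but it was not higher in depleted 786-M1A cells. PRUNE2 (RMS 0.527) had both features, at 3.29, 12.2 and 10.9 CPM and then 6.24, 0.613 and 0.555 CPM. ATRNL1 (RMS 0.674) went from 3.43 to 7.61 and 7.71 CPM and from 2.71 to 0.415 and 0.23 CPM. SCML2 (RMS 0.678), a Polycomb protein, was at 7.51, 20.1 and 9.18 CPM and then 10.5, 1.70 and 1.74 CPM, and EPHA4 (RMS 0.752), a receptor for ephrins, at 11.4, 21.6 and 16.7 CPM and then 7.24, 0.65 and 0.446 CPM. All 5 were thus lowest in the depleted OS-LM1 groups. These are likenesses over 6 means and carry no test. Of the other members that were ranked, SDC1 (RMS 1.48) was nearest to GPC4, at 1570th, and SDC2 ranked 4907th and GPC6 11283rd. GPC2 (RMS 1.37) was below the average log2 CPM of 1 that the ranking required.

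**Figure D5:**
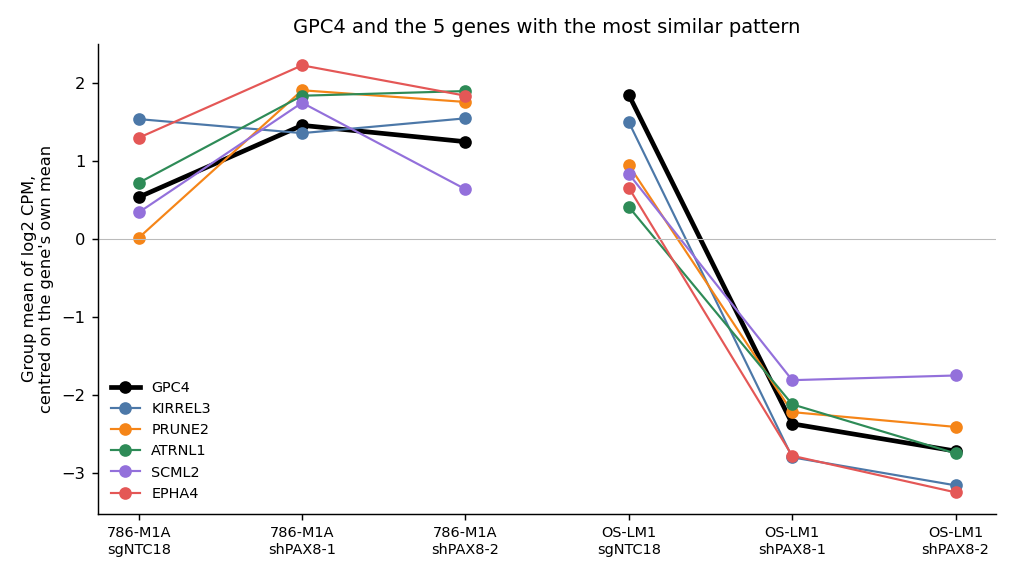
Centred mean log2 CPM over the 6 groups for GPC4 and the 5 genes nearest to it by RMS difference. All 6 lines drop in the depleted OS-LM1 groups, and they differ in the 786-M1A groups.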

How the data were processed

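RNA-seq data from 24 libraries of the lines 786-M1A and OS-LM1 (sgNTC18, shPAX8-1 and shPAX8-2, 4 replicates each, grouped by the labels) were analysed. With RSEM and bowtie2, the authors aligned reads to hg38 and deposited expected counts and TPM per gene for each library, unpooled. Versions and the annotation are not given in the sources used here. The labels name a KAPA stranded kit and the methods a Lexogen kit, so the use of strand in counting is unsure.

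Expected counts were rounded, and weakly expressed genes were dropped by edgeR's filterByExpr (edgeR 4.0.16, R 4.3.3). One robust quasi-likelihood model with TMM scaling was fitted to all 24 libraries and 6 groups, and p-values were adjusted by Benjamini-Hochberg over all 15665 genes tested. CPM use TMM-scaled totals. Other settings included DESeq2 1.42.0 and removal of each library's spline trend on GC content (longest GENCODE transcript, 95.9% of genes). Coordinates are RefSeq's on GRCh38. The RefSeq protein sequences were not used here.

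The members and gene lists were chosen with earlier results of these data known. Named list genes are the up to 2 that rose and 2 that fell most with both constructs in a line, at an average log2 CPM of at least 3. Deviations of same-numbered replicates correlated at −0.319 to 0.271, with no pair of groups over 0.1 in all 4 numbers (3 of 4 between the constructs in 786-M1A cells), so the numbers were not taken to pair samples.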

Additional observations from a re-analysis of the deposited data

Results flagged for a closer look

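In 3 of 54 groups of 4 libraries, 1 library lay far from the others by Dixon's test, where chance gives about 2.7. GPC6 was at 258 CPM in OS-LM1 shPAX8-2 replicate 2, against 193 to 203 CPM in the other 3. SDC2 was at 12.1 CPM in 786-M1A sgNTC18 replicate 1, against 10.5 to 10.6 CPM. GPC2 was at 0.0486 CPM, a single count, in OS-LM1 shPAX8-1 replicate 1 and at 0 in the others.

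The difference between constructs was not the same in both lines for SDC4 (a log2 value of 0.7485 for OS-LM1 minus 786-M1A, adjusted p = 0.000163 by edgeR's quasi-likelihood test) and for PAX8 (1.156, adjusted p = 0.00015). The response to PAX8 depletion went in opposite directions in the lines for GPC4 (−5.233, OS-LM1 minus 786-M1A) and SDC2 (−2.46), in every library, and this difference was not tested because it bears on how the genes were chosen.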

How the results depend on the processing

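GPC6, SDC1, SDC2 and SDC4 stayed on the same side of 0 and of the threshold against sgNTC18 in both lines and with both constructs under all 34 alternatives, and the line difference of GPC4 ranged from −5.32 to −5.18. No scaling moved the median of all genes by over 0.1. With the GC trend removed, 7 members passed with shPAX8-1 and 5 with shPAX8-2 in 786-M1A cells and 2 in the construct difference between lines, with or without the replicate block. In OS-LM1 cells GPC1 and SDC3 passed as well with shPAX8-1, and SDC3 with shPAX8-2, again with or without that block. GPC1 reversed to 0.911, 0.448 and 0.133 (786-M1A shPAX8-1, then OS-LM1 shPAX8-1 and shPAX8-2, against sgNTC18), 0.325 (constructs, 786-M1A), 0.722 and 0.264 (between lines) and −0.0108 (construct difference between lines). SDC3 reversed to 0.359, 0.309, 0.277, 0.032 (constructs, OS-LM1), 0.136 and 0.0621, HS6ST1 to 0.0338 and 0.00607, ADAM17 to −0.113, GPC6 to −0.0689 (constructs, 786-M1A) and 0.119 (construct difference), SDC1 to 0.122 and PAX8 to 0.0909 (constructs, OS-LM1), and SDC2 to 0.188 (construct difference). With the replicate block as well, the same results stood at 0.913, 0.443, 0.128, 0.325, 0.725, 0.26 and −0.0105 for GPC1, at 0.364, 0.307, 0.274, 0.0328, 0.137 and 0.0594 for SDC3, at 0.0388 and 0.00919 for HS6ST1, at −0.122 for ADAM17, at −0.0702 and 0.119 for GPC6, at 0.121 for SDC1, 0.0827 for PAX8 and 0.192 for SDC2, and GPC2 was at 0.152 (OS-LM1 shPAX8-2). The cause of these reversals was not tested. The replicate numbers shared by groups were not taken to pair the samples, although 3 of 4 correlated over 0.1 between the constructs in 786-M1A cells. The replicate block alone turned GPC2 to −0.0572 in 786-M1A constructs, brought GPC4 there past the threshold (0.215, adjusted p = 0.0379) and ended the SDC2 call (0.393, adjusted p = 0.0632), and it changed no other call. Without libraries 1 and 2 of 786-M1A shPAX8-1, 5 members differed between its constructs and 4 in the construct difference. GPC2 turned to −0.324 and −1.07, SDC1 to −0.0455 and 0.0438 (constructs and construct difference) and SDC3 to 0.0412 (line difference). Without libraries 3 and 4, 2 members passed in the construct difference, GPC1 turned to 0.297 and 0.0801, GPC6 to 0.0973, SDC2 to 0.286 and SDC1 to −0.139 (line difference). At an adjusted p under 0.01, 1 member differed between constructs in each line, and without the count filter 1 did in OS-LM1 cells. For all genes, the count called moved by over 1.5 times from 3625 to 2200 (constructs, OS-LM1) and from 4264 to 2449 (construct difference) at that threshold, from 4264 to 6817 and 2579 without libraries 1 and 2 and without 3 and 4, and from 7536 to 3890 (constructs, 786-M1A) without 3 and 4. With single libraries left out, members called between constructs ranged from 1 to 5 in 786-M1A and from 1 to 3 in OS-LM1 cells, and from 1 to 2 in the construct difference. Values that crossed 0 then were GPC1 (−0.256 to 0.0799, 786-M1A shPAX8-1), GPC2 (−1.09 to 0.551, OS-LM1 shPAX8-2, and −0.268 to 0.332, constructs in 786-M1A), SDC1 (−0.0976 to 0.0833), SDC3 (−0.182 to 0.0408) and PAX8 (−0.111 to 0.0938) between OS-LM1 constructs, SDC2 (−0.228 to 0.0743, construct difference) and SDC1 (−0.0551 to 0.0842, line difference). Depth limits GPC2, GPC3 and GPC5, whose counts are too low for a change in OS-LM1 cells to be seen.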
